A study of Mus musculus with 10 samples.

Results

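Translation factors and poly(A) binding proteins are described here in germ cells of WT and KI mice. The members are the listed genes whose symbol begins with Eif or Eef and a digit, or with Pabp or Paip, and they number 75 of the 15507 listed genes. Germ cells (spermatogonia, spermatocytes and spermatids) were dispersed by collagenase and trypsin from testes of 5 WT mice and 5 homozygous GRTH-KI mice, each 45 days old. The KI mice bear the human gene of GRTH, the RNA helicase also called DDX25, with the R242H mutation. The poly(A) RNA of every mouse gave 1 library. A normalized count is the number of reads on a gene divided by a size factor of its library, and fold changes are given as KI against WT.

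Translation begins when eIF2 carries the initiator tRNA to the small ribosomal subunit and the eIF4F complex brings that subunit to the capped end of an mRNA. Poly(A) binding proteins hold the other end and touch eIF4G, and elongation factors then deliver each aminoacyl-tRNA and move the ribosome along. In the testis these steps have a particular part, because round spermatids store many mRNAs in a silent state and translate them only after transcription has ceased, and several factors have copies that are used mainly in germ cells.

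The WT libraries held 13323024 to 16422347 recovered reads on genes and the KI libraries 12722086 to 15500582. The means differed by −349945 reads, KI against WT (n = 5 each, p = 0.659 in an exact permutation test, two-sided). Ddx25, the targeted mouse gene, had normalized counts of 7615, 7782, 5198, 11101 and 9458 in WT libraries 1 to 5 and 146, 194, 161, 2.88 and 1.84 in KI libraries 1 to 5. All KI libraries lay far below all WT libraries, and KI libraries 4 and 5 were near 0 while KI libraries 1 to 3 were not. Over all libraries it had a log2 fold change −7.84 (SE 1.03, limma adjusted p = 5.63e-05), with −5.34 for libraries 1 to 3 and −11.59 for libraries 4 and 5 (interaction adjusted p = 1.12e-10), and the last of these depends on the pseudocount in the near-empty libraries. The reads were assigned to the mouse gene, and the KI mice bear a human one. Libraries 1 to 3 and libraries 4 and 5 of both genotypes also stood apart on the second principal component (9.75% of the variance), so the fold change within each of these sets is given for the genes on which the results rest.

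Markers of the germ cell stages were read in every library. The 11 elongating spermatid markers were all down-regulated in KI (11 of 11, median log2 fold change −2.27), and none was at 0 throughout. Their summed normalized counts were 437585, 490481, 520834, 316665 and 311012 in WT libraries 1 to 5 and 94014, 103997, 102116, 96095 and 69803 in KI libraries 1 to 5, with Prm2 as the most abundant gene. WT libraries 4 and 5 were the lowest of the WT libraries in this sum and still lay above every KI library. Of 9 round spermatid markers 1 was down-regulated (Tssk2), 4 had a limma adjusted p under 0.05 and 9 had a negative log2 fold change (median −0.41). Their sums were 29314 to 35530.3 in WT and 17991 to 26885 in KI, without overlap. For earlier stages, 0 of 10 spermatocyte and 0 of 8 spermatogonium markers were differentially expressed in limma (medians 0.03 and 0.01, with 2 and 1 at an adjusted p under 0.05 and 4 and 3 at an unadjusted p under 0.05). The mean sum was 69927 in WT and 59609 in KI for spermatocyte markers. For spermatogonium markers it was 10755 in WT and 9382 in KI. Both sums were thus lower in KI on average, with overlap between genotypes. Ldhc gave most of the spermatocyte sum (mean 55218 in WT and 45116 in KI). Ddx4 gave most of the spermatogonium sum (mean 8909 in WT and 7470 in KI). The sums thus mainly follow these genes, while the medians over the markers were 0.03 and 0.01. In these bulk preparations fewer cells of a type and less RNA per cell cannot be told apart.

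Markers of somatic cells were read as well. Leydig cell markers were up-regulated for 4 of 7 genes, and their summed normalized counts were 11902, 19503, 10875, 11735 and 15359 in WT libraries 1 to 5 and 22928, 24150.2, 27046, 15729 and 26702 in KI libraries 1 to 5, with Insl3 most abundant. Macrophage markers were up-regulated for 5 of 9 genes, with sums of 669 to 888 in WT and 973 to 1316 in KI and Mrc1 most abundant. Of 5 endothelial markers 2 were up-regulated (Cdh5 and Vwf), with sums of 265 to 365 in WT and 424 to 805 in KI. Of 4 tested peritubular markers 2 were up-regulated (Acta2 and Des), of 5 red blood cell markers Hba-a1 was up-regulated and Alas2 down-regulated, and 0 of 10 Sertoli cell markers were differentially expressed, with 1 at a limma adjusted p under 0.05 and 1 at an unadjusted p under 0.05. edgeR and DESeq2 called 3 and 6 of the Leydig cell markers and 1 and 2 of the peritubular ones. No marker in any of these lists was at 0 in all libraries. The part that these cell types have in the results below was not tested.

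All 75 members passed the filter on low counts and were tested with limma on log2(normalized count + 1). Differential expression required a fold change of 1.5 or more in either direction and an adjusted p under 0.05. By that rule 8 members were differentially expressed, 8 down-regulated and 0 up-regulated, where 14.4% of the 15389 genes tested were called, 8.22% as down-regulated and 6.13% as up-regulated. The 8 members are 10.7% of the list, a share near that of all genes. The 0 up-regulated members compare with 6 higher at an unadjusted p under 0.05 in limma, and edgeR and DESeq2 also called 0 higher and 8 lower, the same 8 genes. Where a role, pathway list or marker list has 0 called in limma, edgeR and DESeq2 also called 0. The median log2 fold change was −0.07 over the members and 0.03 over all genes tested.

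The 8 down-regulated members were Eef1d and Eef1g of the elongation machinery, Eif1 and Eif1ax of start codon choice, Eif4e, Eif4g1 and Eif4h of the cap binding complex, and Paip2, an inhibitor of poly(A) binding proteins. A further 7 members had an adjusted p under 0.05 with a smaller fold change, 5 of them lower and 2 higher, so that 15 of 75 members passed the adjusted p against 22.9% of all genes. With library totals the 5 lower ones (Eif1a, Eif2s1, Eif3j2, Eif4b and Eif5) had an adjusted p over 0.05, and in libraries 4 and 5 alone all 7 did. With a block for replicate number 26 members instead of 15 passed the adjusted p, and no member's call changed. The 22.9% of all genes is for the fit without that block. In 12 members the WT and KI libraries did not overlap (16.0%, against 17.7% of all genes tested), 11 lower and 1 higher in KI.

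The scaling of libraries affected these counts. The sum of normalized counts was 15456693 to 16736057 in WT and 12939539 to 14599434 in KI. It was lower in every KI library, with a difference of −2338652 (n = 5 each, p = 0.00794 in an exact permutation test, the smallest p this test can give). The authors' factors set the libraries level on the typical gene, whereas scaling to library totals moved the median of all genes from 0.03 to 0.25 and that of the members from −0.07 to 0.16. Relative to all genes, the member median was −0.10 and −0.09 under the 2 scalings. With library totals 3 members were called lower (Eef1d, Eef1g and Eif1) and 2 higher (Eif2s3x and Eif4e3), and the 8 genes named above all kept a negative log2 fold change.

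**Figure D1:**
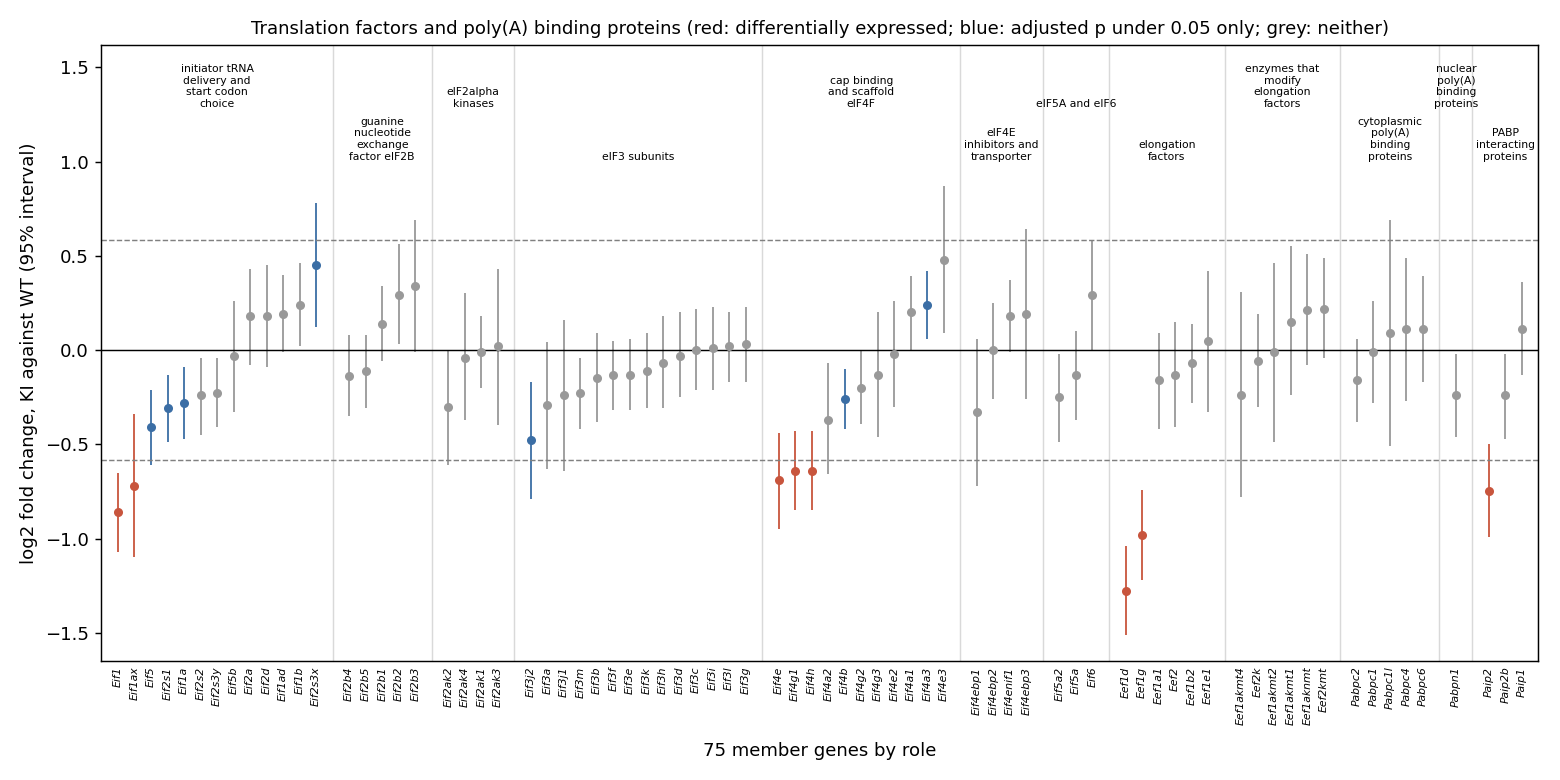
log2 fold change (KI against WT, vertical axis) of each of the 75 members, grouped by role, with 95% intervals; dashed lines mark a fold change of 1.5. The 8 red points are the differentially expressed members, from −1.28 for Eef1d to −0.64 for Eif4h, and the 7 blue points passed the adjusted p alone.

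Initiation starts with the factors that deliver the initiator tRNA and choose the start codon. Of the 13 members in this role 2 were down-regulated and none was up-regulated, with a median log2 fold change of −0.23. The 2 are 15.4% of the role, near the 14.4% called among all genes. The summed normalized counts of the 13 genes were 32710.1, 33089.6, 30078, 29968 and 29048 in WT libraries 1 to 5 and 25466, 23688, 24055, 26858 and 24481 in KI libraries 1 to 5. Each KI library was below each WT library in this sum (log2 ratio of means −0.31), whereas with library totals the genotypes overlapped (−0.08). Eif5 gave it the most reads, followed by Eif1 in WT and by Eif5b in KI.

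Eif1 (chromosome 11, 100319949 to 100322099, plus strand) encodes eIF1, which keeps the scanning ribosome open until the start codon pairs well. Eif1 had normalized counts of 6043, 6028, 5886, 5588 and 5188 in WT libraries 1 to 5 and 3316, 3012, 3323, 3601 and 2644 in KI libraries 1 to 5. The lowest WT library, number 5, was above the highest KI library, number 4. Means were 5747 ± 362 in WT and 3179 ± 365 in KI (SD, n = 5 each), log2 fold change −0.86 (SE 0.10, limma adjusted p = 1.37e-05), with −0.90 in libraries 1 to 3 and −0.80 in libraries 4 and 5. Its near-identical copy Eif1b had normalized counts of 2194, 2129, 2199, 2404 and 1876 in WT libraries 1 to 5 and 2417, 2881, 2626, 2824 and 2094 in KI libraries 1 to 5, which overlapped between genotypes, log2 fold change 0.24 (SE 0.10, limma adjusted p = 0.104). Within a library the ratio of Eif1 to Eif1b does not depend on the scaling, and it was 2.32 to 2.83 in the WT libraries and 1.05 to 1.37 in the KI libraries. Every KI ratio was under every WT ratio. Eif1b was chosen after its values were seen, so the ratio is descriptive and no separate test. Reads of copies this alike could be split between them in counting, so both values are uncertain to that extent.

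Eif1ax (chromosome X, 159372178 to 159389621, plus strand) encodes eIF1A, the partner of eIF1 in scanning, and lies on the X chromosome. Eif1ax had normalized counts of 887, 902, 1112, 569 and 674 in WT libraries 1 to 5 and 622, 502, 586, 400.03 and 384 in KI libraries 1 to 5. WT library 4 lay below KI libraries 1 and 3, so the genotypes overlapped, and libraries 4 and 5 were the lowest of each genotype. Means were 829 ± 213 in WT and 499 ± 107 in KI (SD, n = 5 each), log2 fold change −0.72 (SE 0.18, limma adjusted p = 0.00864), with −0.76 in libraries 1 to 3 and −0.66 in libraries 4 and 5. With library totals the log2 fold change was −0.49 (limma adjusted p = 0.0514), and the call was lost. The autosomal copy Eif1a had normalized counts of 1155, 1059, 885, 1171 and 1021 in WT libraries 1 to 5 and 896, 859, 854, 857 and 873 in KI libraries 1 to 5, log2 fold change −0.28 (SE 0.09, limma adjusted p = 0.037), which is under the fold change threshold. It was −0.05 with library totals (adjusted p = 0.682), and the adjusted p was over 0.05 without 1 library in 8 of 10 cases. Only WT library 3, the lowest of WT, reached into the KI range of Eif1a. The ratio of Eif1ax to Eif1a was 0.486 to 1.26 in the WT libraries and 0.439 to 0.695 in the KI libraries, with overlap. Reads of Eif1ax and Eif1a may also be split between the copies.

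The eIF2 complex, a GTPase of 3 subunits, carries the initiator tRNA itself. Eif2s1, its alpha subunit and the target of the stress kinases, had normalized counts of 2556, 2548, 2341, 2358 and 2075 in WT libraries 1 to 5 and 1908, 1941, 1907, 2001 and 1798 in KI libraries 1 to 5. The libraries of the genotypes did not overlap, yet the difference was small, log2 fold change −0.31 (SE 0.08, limma adjusted p = 0.0138), and it was −0.08 with library totals (adjusted p = 0.401). Eif2s2, the beta subunit, had a log2 fold change of −0.24 (limma adjusted p = 0.0784). The ratio of Eif2s1 to Eif2s2 was 1.08 to 1.18 in the WT libraries and 0.917 to 1.21 in the KI libraries and overlapped.

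The gamma subunit has a copy on each sex chromosome, and the Y copy Eif2s3y is needed for the proliferation of spermatogonia in mice. Eif2s3y (chromosome Y, 1010595 to 1028594, plus strand) had normalized counts of 667, 691, 593, 609.8 and 626 in WT libraries 1 to 5 and 536, 553, 498, 550.05 and 587 in KI libraries 1 to 5. All KI libraries were below all WT libraries, log2 fold change −0.23 (SE 0.09, limma adjusted p = 0.0743). The adjusted p lay on either side of the threshold by setting, at 0.0359 with a replicate block, 0.0416 with a term for libraries 4 and 5 (DESeq2 also under 0.05) and 0.975 with library totals, where the log2 fold change was 0.00. Eif2s3x (chromosome X, 94188709 to 94212651, minus strand) had normalized counts of 106, 128, 122, 102 and 103 in WT libraries 1 to 5 and 179.6, 149, 154, 107 and 188 in KI libraries 1 to 5. KI libraries 1 to 3 and 5 were above every WT library and KI library 4 was not, log2 fold change 0.45 (SE 0.15, limma adjusted p = 0.0488). The adjusted p of Eif2s3x was over 0.05 without 1 library in 8 of 10 cases. The Y copy was the more abundant of the pair per kb of exon, 347 in WT and 297 in KI against 30.2 in WT and 41.8 in KI. Its ratio to the X copy, in normalized counts, was 4.86 to 6.32 in the WT libraries and 2.99 to 5.15 in the KI libraries, with an overlap from KI library 4 alone.

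Eif5, which triggers GTP hydrolysis by eIF2 at the start codon, had normalized counts of 11368, 12106, 10288, 10014 and 9516 in WT libraries 1 to 5 and 8692, 7654, 7721, 8329 and 7685 in KI libraries 1 to 5. Its libraries did not overlap between genotypes, log2 fold change −0.41 (SE 0.09, limma adjusted p = 0.00547), with −0.49 in libraries 1 to 3 and −0.29 in libraries 4 and 5 and −0.18 with library totals (adjusted p = 0.0953). Eif5b, the GTPase that joins the large subunit, had a log2 fold change of −0.03 (limma adjusted p = 0.892), and the factors Eif2a, Eif2d and Eif1ad had values of 0.18 (limma adjusted p = 0.322), 0.18 (limma adjusted p = 0.348) and 0.19 (limma adjusted p = 0.169).

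Recycling of eIF2 depends on the exchange factor eIF2B, and 4 kinases inhibit it by phosphorylating the alpha subunit of eIF2. None of the 5 eIF2B genes was differentially expressed in limma (0 of 5, with 1 at an unadjusted p under 0.05, median log2 fold change 0.14, range −0.14 to 0.34). Eif2b5, the catalytic subunit and the most abundant per kb of exon, had normalized counts of 1559, 1626, 1708, 2033 and 1657 in WT libraries 1 to 5 and 1445, 1631, 1527, 1664 and 1638 in KI libraries 1 to 5, which overlapped, log2 fold change −0.11 (SE 0.09, limma adjusted p = 0.409). Of the 4 kinases 0 were called in limma, with 0 at an unadjusted p under 0.05 (median −0.03). Eif2ak1, the heme-regulated kinase, was the most abundant of them per kb of exon (156 in WT and 154 in KI), with normalized counts of 747, 725, 601, 655 and 640.01 in WT libraries 1 to 5 and 669.9, 633, 651, 699 and 678 in KI libraries 1 to 5. Its groups overlapped throughout, log2 fold change −0.01 (SE 0.09, limma adjusted p = 0.942). Eif2ak2, the kinase activated by double-stranded RNA, had a log2 fold change of −0.30 (limma adjusted p = 0.148), with −0.59 in libraries 1 to 3 and 0.12 in libraries 4 and 5, and it was called lower when libraries 1 to 3 were fitted alone. Eif2ak3, which responds to stress of the endoplasmic reticulum, and Eif2ak4, which responds to lack of amino acids, had values of 0.02 (limma adjusted p = 0.96) and −0.04 (limma adjusted p = 0.894). Among 8 target genes of this stress pathway, such as Atf4 and Ddit3, 0 were differentially expressed in limma, 1 had an adjusted and 2 an unadjusted p under 0.05, and the median was 0.13.

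The eIF3 complex is the largest initiation factor and holds the small subunit and eIF4G together. Of its 14 member genes 0 were differentially expressed in limma, with 1 at an adjusted and 2 at an unadjusted p under 0.05 (median log2 fold change −0.12, range −0.48 to 0.03). Summed over the 14 genes, normalized counts were 39288, 40139.95, 39226, 38990.2 and 38657 in WT libraries 1 to 5 and 33209, 36333, 34434, 41428 and 38857 in KI libraries 1 to 5. KI libraries 1 to 3 were the lowest in this sum and KI library 4 was the highest of all, so that the genotypes overlapped (log2 ratio of means −0.09). With library totals the direction turned, and every KI sum lay above every WT sum (0.13).

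Eif3b, the subunit most abundant per kb of exon, had normalized counts of 9404, 9953, 9677, 8885 and 10377 in WT libraries 1 to 5 and 7417, 8184, 7814, 10675 and 9866 in KI libraries 1 to 5. KI libraries 1 to 3 were below every WT library, whereas KI library 4 was above them and KI library 5 lay among them, log2 fold change −0.15 (SE 0.11, limma adjusted p = 0.378), with −0.31 in libraries 1 to 3 and 0.10 in libraries 4 and 5. Eif3a and Eif3c, core subunits as well, gave −0.51 in libraries 1 to 3 and 0.03 in libraries 4 and 5 and −0.20 in libraries 1 to 3 and 0.30 in libraries 4 and 5. The differences between the library sets were tested by an interaction with genotype, chosen after the data were seen. It gave an adjusted p under 0.05 for 0 of the 75 members (13 at an unadjusted p under 0.05, lowest adjusted p 0.0972) and for 38 of all genes in limma. Eif3j2 had an adjusted p under 0.05, log2 fold change −0.48 (SE 0.15, limma adjusted p = 0.0272), with normalized counts of 279, 298, 231, 215 and 197 in WT libraries 1 to 5 and 188, 136, 212, 175 and 160.1 in KI libraries 1 to 5. The deposited table places Eif3j2 on the same stretch of chromosome 2 as Eif3j1, while GENCODE and RefSeq put it on chromosome 18, so the pair may share reads and the value is uncertain. Fitted in libraries 1 to 3 alone, Eif3j2 was called lower, and its log2 fold change was −0.25 with library totals (adjusted p = 0.181). Eif3j1 itself had a log2 fold change of −0.24 (limma adjusted p = 0.406).

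Cap binding is the step at which most mRNAs are selected. Of the 11 genes in the eIF4F role 3 were down-regulated and none was up-regulated. The 3 are 27.3% of the role, against 14.4% called among all genes, and the difference was not tested. The median log2 fold change of the 11 genes was −0.20. In 5 the genotypes did not overlap, 4 lower and Eif4a3 higher in KI, where 17.7% of all genes did not. Summed normalized counts of the 11 genes were 43292, 44183, 41838, 40048 and 42658 in WT libraries 1 to 5 and 34166, 33127, 32571, 39626 and 39523 in KI libraries 1 to 5. Each KI library was below each WT library here, KI libraries 4 and 5 just under WT library 4 (log2 ratio of means −0.24), but with library totals the genotypes overlapped (−0.02).

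Eif4e (chromosome 3, 138526191 to 138559696, plus strand) encodes the protein that binds the cap. Eif4e had normalized counts of 2748, 2596, 2779, 2014 and 1895 in WT libraries 1 to 5 and 1698, 1445, 1447, 1458 and 1325 in KI libraries 1 to 5. WT libraries 1 to 3 were clearly the highest, WT libraries 4 and 5 were lower, and all were above KI library 1, the highest of KI. Means were 2406 ± 420.5 in WT and 1475 ± 136 in KI (SD, n = 5 each), log2 fold change −0.69 (SE 0.12, limma adjusted p = 6.07e-04), with −0.83 in libraries 1 to 3 and −0.49 in libraries 4 and 5. In libraries 4 and 5 alone, and with library totals (−0.46), Eif4e kept an adjusted p under 0.05 but fell short of the fold change threshold. The related cap binding proteins were not called. Eif4e2, which binds the cap without recruiting eIF4G, had normalized counts of 3206, 3741, 3375, 3982 and 3847 in WT libraries 1 to 5 and 2973, 3179, 3021, 4557 and 4458 in KI libraries 1 to 5, log2 fold change −0.02 (SE 0.13, limma adjusted p = 0.94), and its libraries overlapped, KI libraries 4 and 5 being the highest of all. Eif4e3, a scarce form, had normalized counts of 58.6, 56.7, 41.1, 41.1 and 40.5 in WT libraries 1 to 5 and 80.5, 62.6, 80.3, 51 and 59.8 in KI libraries 1 to 5, log2 fold change 0.48 (SE 0.18, limma adjusted p = 0.0751), and was called higher only with library totals (log2 fold change 0.71). Eif4e1b, the oocyte form, was not analysed here because it is not listed.

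Eif4g1 (chromosome 16, 20672727 to 20692883, plus strand) encodes the scaffold that joins eIF4E, the helicase eIF4A and the poly(A) binding protein. Eif4g1 had normalized counts of 5056, 5228, 5169, 4027 and 5148 in WT libraries 1 to 5 and 3016, 2885, 2902, 3537 and 3440.04 in KI libraries 1 to 5. WT library 4 was far below the other WT libraries, and it was still above KI library 4, the highest of KI. Means were 4926 ± 506 in WT and 3156 ± 309 in KI (SD, n = 5 each), log2 fold change −0.64 (SE 0.10, limma adjusted p = 2.72e-04), with −0.81 in libraries 1 to 3 and −0.38 in libraries 4 and 5. The adjusted p in libraries 4 and 5 alone was 0.133, and with library totals the log2 fold change was −0.41, so the call was lost in both.

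The scaffold has paralogs. Eif4g3, whose loss in mice stops male meiosis, had normalized counts of 8108, 8666, 7464, 8879 and 10509 in WT libraries 1 to 5 and 6578, 6595, 6617, 10216 and 10738 in KI libraries 1 to 5. KI libraries 1 to 3 were the lowest and KI libraries 4 and 5 among the highest, log2 fold change −0.13 (SE 0.15, limma adjusted p = 0.614), with −0.29 in libraries 1 to 3 and 0.12 in libraries 4 and 5. Eif4g2, a form that lacks the eIF4E binding site and was the most abundant of the role per kb of exon, had normalized counts of 14041, 14323, 12770.1, 12066 and 12596 in WT libraries 1 to 5 and 11746, 10901, 10602, 12086 and 11959.6 in KI libraries 1 to 5. The genotypes overlapped in KI library 4, log2 fold change −0.20 (SE 0.09, limma adjusted p = 0.139). Per kb of exon the levels were 1646 in WT and 1433 in KI for Eif4g2, 862 in WT and 805 in KI for Eif4g3 and 816 in WT and 523 in KI for Eif4g1. Eif4g1 and Eif4g3 were thus near each other in WT on this scale, and Eif4g1 was the lower one in KI. The ratio of Eif4g1 to Eif4g3 in normalized counts was 0.454 to 0.693 in the WT libraries and 0.32 to 0.458 in the KI libraries, with overlap.

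Eif4h (chromosome 5, 134619872 to 134639409, minus strand) encodes a cofactor of the helicase eIF4A. Eif4h had normalized counts of 3374, 3278, 3569, 2638 and 2789.7 in WT libraries 1 to 5 and 1850.4, 2010.2, 1876, 2061 and 2169 in KI libraries 1 to 5. WT libraries 1 to 3 were the highest, WT libraries 4 and 5 came next, and no KI library reached them. Means were 3129.6 ± 397 in WT and 1993 ± 132 in KI (SD, n = 5 each), log2 fold change −0.64 (SE 0.10, limma adjusted p = 2.31e-04), with −0.83 in libraries 1 to 3 and −0.36 in libraries 4 and 5. In libraries 4 and 5 alone the adjusted p was 0.115, and with library totals the log2 fold change was −0.41, short of the threshold. Eif4b, the other cofactor of the helicase, had normalized counts of 2218, 2191, 2389, 2171 and 2332 in WT libraries 1 to 5 and 1872, 1899.8, 1804, 1922 and 1908 in KI libraries 1 to 5. Its libraries kept apart by genotype with little spread, and the difference was small, log2 fold change −0.26 (SE 0.07, limma adjusted p = 0.0183), and −0.03 with library totals (adjusted p = 0.709).

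The helicase genes showed no call. Eif4a1 and Eif4a2 had log2 fold changes of 0.20 (limma adjusted p = 0.139) and −0.37 (limma adjusted p = 0.074). Eif4a3, which works in the exon junction complex and not at the cap, was higher in KI without overlap at 0.24 (limma adjusted p = 0.0485), under the fold change threshold. It was 0.47 with library totals (adjusted p = 5.54e-04). Without 1 library its adjusted p was over 0.05 in 8 of 10 cases. Eif4a3 is named for that absence of overlap, after its values were seen.

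**Figure D2:**
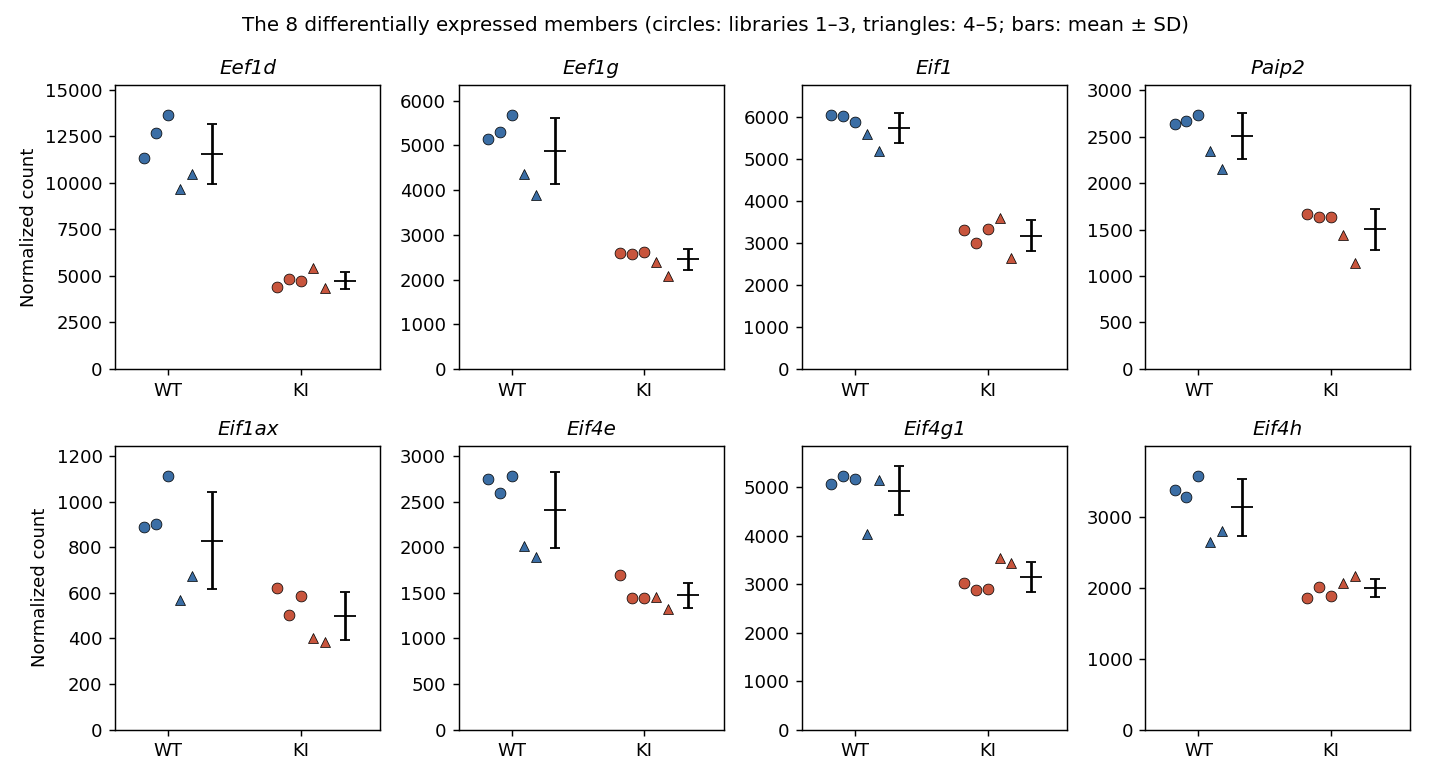
Normalized counts (vertical axes, from 0) of the 8 differentially expressed members in each of the 5 WT and 5 KI libraries, with circles for libraries 1 to 3, triangles for libraries 4 and 5 and bars for mean ± SD. KI libraries lie below all WT libraries in 7 of the 8 genes, and Eif1ax is the gene with overlap. The genes were called from these same libraries, so the lack of overlap is descriptive.

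Inhibitors of eIF4E compete with eIF4G for it. None of the 4 genes in this role was differentially expressed in limma (0 of 4, with 0 at an unadjusted p under 0.05, lowest adjusted p 0.163). Their summed normalized counts overlapped between genotypes (log2 ratio of means 0.1). With library totals every KI sum lay above every WT sum (0.33), where the median of all genes was 0.25. On that scaling Eif4enif1 had a log2 fold change of 0.41 (limma adjusted p = 0.00328) and was not called. Eif4ebp2 had normalized counts of 406, 343, 292, 298 and 332 in WT libraries 1 to 5 and 317, 316, 293, 334 and 404 in KI libraries 1 to 5, with full overlap and a log2 fold change of 0.00 (limma adjusted p = 0.984). Eif4ebp1 and Eif4ebp3 were scarce. Eif4ebp1 had normalized counts of 93.1, 74, 129, 97.3 and 85.6 in WT libraries 1 to 5 and 76.1, 83.4, 99.9, 58.7 and 61.6 in KI libraries 1 to 5, with overlap and a log2 fold change of −0.33 (limma adjusted p = 0.213). Eif4ebp3 had 58.6, 49.7, 62.8, 72.2 and 65.9 in WT libraries 1 to 5 and 54.9, 60.8, 52.5, 114 and 84.6 in KI libraries 1 to 5, with overlap and a log2 fold change of 0.19 (limma adjusted p = 0.574). Eif4enif1, which carries eIF4E to the nucleus and was the most abundant of the role per kb of exon, had normalized counts of 909, 838, 755, 756 and 858 in WT libraries 1 to 5 and 999.96, 935, 865, 975 and 882 in KI libraries 1 to 5, log2 fold change 0.18 (SE 0.09, limma adjusted p = 0.163). Among 11 genes of the mTOR and MNK kinases that act on these proteins, 0 were differentially expressed in limma, 0 had an adjusted and 1 an unadjusted p under 0.05, and the median was 0.12.

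Elongation held the 2 members with the largest fold changes. Of the 6 elongation factor genes 2 were down-regulated (33.3%, against 14.4% called among all genes, a difference that was not tested). The median log2 fold change of the 6 genes was −0.15. Summed normalized counts were 91669, 100787, 100295, 93578 and 87726 in WT libraries 1 to 5 and 73398, 80403, 74391, 84205 and 78759 in KI libraries 1 to 5. All KI sums were under all WT sums (log2 ratio of means −0.28), yet they overlapped with library totals (−0.05). Most of these reads were of Eef1a1 and Eef2, which were not called.

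Eef1d (chromosome 15, 75894796 to 75909556, minus strand) encodes the delta subunit of eEF1B, the complex that reloads eEF1A with GTP. Eef1d had normalized counts of 11314, 12664, 13632, 9654 and 10459 in WT libraries 1 to 5 and 4393, 4854, 4723, 5428 and 4337 in KI libraries 1 to 5. WT library 4, the lowest of WT, was well above KI library 4, the highest of KI. Means were 11544 ± 1614 in WT and 4747 ± 439 in KI (SD, n = 5 each), log2 fold change −1.28 (SE 0.11, limma adjusted p = 8.73e-07), with −1.43 in libraries 1 to 3 and −1.05 in libraries 4 and 5. The spread was wider among the WT libraries, where numbers 4 and 5 were lowest, as they were in the sum of elongating spermatid markers. Any relation between Eef1d and that sum was not tested.

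Eef1g (chromosome 19, 8967041 to 8978180, plus strand) encodes the gamma subunit, which holds the complex together. Eef1g had normalized counts of 5144, 5301, 5673, 4360.1 and 3884 in WT libraries 1 to 5 and 2594, 2568, 2614, 2402 and 2073 in KI libraries 1 to 5. Every KI library was below WT library 5, the lowest of WT, and libraries 4 and 5 were the lowest of each genotype. Means were 4873 ± 731 in WT and 2450.2 ± 227 in KI (SD, n = 5 each), log2 fold change −0.98 (SE 0.11, limma adjusted p = 1.62e-05), with −1.05 in libraries 1 to 3 and −0.88 in libraries 4 and 5. Eef1b2, the alpha subunit of the same complex, was not called. Eef1b2 had normalized counts of 961, 953, 965, 1031 and 801 in WT libraries 1 to 5 and 980.5, 989.9, 929.7, 829.9 and 766 in KI libraries 1 to 5, with overlapping libraries and a log2 fold change of −0.07 (limma adjusted p = 0.677). The ratio of Eef1d to Eef1b2 was 9.36 to 14.1 in the WT libraries and 4.48 to 6.54 in the KI libraries, and that of Eef1g to Eef1b2 was 4.23 to 5.88 in the WT libraries and 2.59 to 2.89 in the KI libraries. Neither ratio overlapped between genotypes, and neither depends on the scaling of libraries. Eef1b2 was chosen after its values were seen, so these ratios are descriptive and no separate test.

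Eef1a1 delivers aminoacyl-tRNA to the ribosome, and it was the most abundant member per kb of exon (23469.8 in WT and 20896 in KI). Eef1a1 had normalized counts of 43187, 45981, 45296, 42615 and 33445 in WT libraries 1 to 5 and 38760.2, 41799.5, 37663, 35698 and 33517 in KI libraries 1 to 5. WT library 5 lay far below the other WT libraries, at the level of KI library 5, the lowest of KI, log2 fold change −0.16 (SE 0.12, limma adjusted p = 0.368). Eef1a1 has many processed copies in the genome, with which reads may be shared, and Eef1a2 was not analysed here because it is not listed. Eef2, which moves the ribosome by a codon, had a log2 fold change of −0.13 (limma adjusted p = 0.535), with −0.25 in libraries 1 to 3 and 0.06 in libraries 4 and 5. Eef1e1, a part of the aminoacyl-tRNA synthetase complex, had a value of 0.05 (limma adjusted p = 0.879).

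Enzymes that modify elongation factors were scarce and 0 of 6 were differentially expressed in limma (0 at an unadjusted p under 0.05, lowest adjusted p 0.227, range −0.24 to 0.22). Their summed normalized counts overlapped between genotypes (log2 ratio of means 0.1). With library totals every KI sum lay above every WT sum (0.33), where the median of all genes was 0.25. On that scaling Eef2kmt had a log2 fold change of 0.45 (limma adjusted p = 0.0183) and was not called. Eef2k, the kinase that inhibits eEF2, had normalized counts of 264, 297, 289, 268 and 344 in WT libraries 1 to 5 and 256, 282, 243, 328 and 296 in KI libraries 1 to 5, which overlapped throughout, log2 fold change −0.06 (SE 0.11, limma adjusted p = 0.768). Eef2kmt, a methyltransferase of eEF2, was the most abundant of them per kb of exon and had normalized counts of 265, 305, 307, 362 and 248 in WT libraries 1 to 5 and 345, 390.2, 393, 320.2 and 286 in KI libraries 1 to 5, log2 fold change 0.22 (SE 0.13, limma adjusted p = 0.227). KI libraries 2 and 3 were its highest, and the genotypes overlapped.

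The factors eIF5A, which helps the ribosome through difficult stretches and carries the amino acid hypusine, and eIF6, which keeps the subunits apart, gave 0 calls among 3 genes in limma (1 at an unadjusted p under 0.05, lowest adjusted p 0.108). Eif5a had normalized counts of 9059.9, 9399.7, 9836, 10085 and 8125 in WT libraries 1 to 5 and 8926, 9399, 9406, 8247 and 6639 in KI libraries 1 to 5, with overlap and a log2 fold change of −0.13 (limma adjusted p = 0.436). Eif5a2, its paralog, had normalized counts of 399.6, 413, 439.6, 385 and 397 in WT libraries 1 to 5 and 399, 371, 360.3, 300.03 and 286 in KI libraries 1 to 5, with overlap and a log2 fold change of −0.25 (limma adjusted p = 0.108). Per kb of exon Eif5a stood at 3913 in WT and 3586 in KI and Eif5a2 at 80.9 in WT and 68.3 in KI. Eif6 had a value of 0.29 (limma adjusted p = 0.145). Of 9 diphthamide and hypusine enzymes 0 were called in limma, and 0 had an adjusted and 1 an unadjusted p under 0.05 (median 0.02).

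Of the 5 cytoplasmic poly(A) binding proteins Pabpc1, Pabpc2 and Pabpc6 were among the most abundant members per kb of exon, while Pabpc4 and Pabpc1l were among the scarcest, and 0 of 5 were differentially expressed in limma (0 at an unadjusted p under 0.05, lowest adjusted p 0.295, median log2 fold change 0.09). The general form, Pabpc1 (chromosome 15, 36595658 to 36608973, minus strand), had normalized counts of 40695, 45465, 40777, 45592 and 48060.4 in WT libraries 1 to 5 and 37985, 40169, 38428, 52142 and 52325 in KI libraries 1 to 5. KI libraries 1 to 3 were the lowest and KI libraries 4 and 5 the highest, on both sides of the WT range, log2 fold change −0.01 (SE 0.13, limma adjusted p = 0.97), with −0.12 in libraries 1 to 3 and 0.16 in libraries 4 and 5. The interval of the log2 fold change was −0.28 to 0.26, which excludes a fold change of 1.5 in either direction on this scaling.

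Mice also have intronless copies of this gene, of which Pabpc2 is known from the testis. Pabpc2 (chromosome 18, 39773497 to 39776082, plus strand, 1 exon) had normalized counts of 18907, 20715, 18514, 20806 and 19284 in WT libraries 1 to 5 and 16013, 17179, 15803, 20284 and 19004 in KI libraries 1 to 5, log2 fold change −0.16 (SE 0.10, limma adjusted p = 0.295). KI libraries 1 to 3 were below every WT library, and KI libraries 4 and 5 lay within the WT range. Pabpc6 (chromosome 17, 9666497 to 9669704, minus strand, 1 exon) had normalized counts of 9857, 11443, 9193, 9340.1 and 9837 in WT libraries 1 to 5 and 9285, 9883, 8715, 12765 and 13667 in KI libraries 1 to 5, log2 fold change 0.11 (SE 0.13, limma adjusted p = 0.601), with −0.12 in libraries 1 to 3 and 0.46 in libraries 4 and 5. KI libraries 4 and 5 were above all WT libraries and KI library 3 was the lowest. The interaction of genotype with library set for Pabpc6 had an adjusted p of 0.0972.

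Per kb of exon the order was Pabpc1 (15661 in WT and 15694 in KI), Pabpc2 (7597 in WT and 6828 in KI) and Pabpc6 (3082 in WT and 3370.4 in KI). The germ cell preparations thus held Pabpc2 at a high level, second to Pabpc1 in both genotypes. The ratio of Pabpc2 to Pabpc1 in normalized counts was 0.401 to 0.465 in the WT libraries and 0.363 to 0.428 in the KI libraries, and that of Pabpc6 to Pabpc1 was 0.205 to 0.252 in the WT libraries and 0.227 to 0.261 in the KI libraries, both with overlap. Because the 3 genes are alike in sequence, reads may be split among them. The inducible form Pabpc4 and the embryonic form Pabpc1l were scarce. Pabpc4 had normalized counts of 80.5, 74, 116, 107 and 114 in WT libraries 1 to 5 and 128, 87.8, 133, 91.4 and 91.1 in KI libraries 1 to 5, log2 fold change 0.11 (SE 0.18, limma adjusted p = 0.707). Pabpc1l had 19.9, 9.25, 19.3, 18.1 and 27.3 in WT libraries 1 to 5 and 14.2, 21.7, 16.5, 24 and 20.2 in KI libraries 1 to 5, log2 fold change 0.09 (SE 0.28, limma adjusted p = 0.86). At such counts the spread between libraries was wide, and both overlapped.

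Pabpn1, which binds poly(A) in the nucleus while the tail is made, had normalized counts of 2640.2, 2309, 2632, 2268 and 2473 in WT libraries 1 to 5 and 2156, 2101, 2368, 2199 and 1658 in KI libraries 1 to 5. KI library 5 was the lowest and the genotypes overlapped, log2 fold change −0.24 (SE 0.10, limma adjusted p = 0.104). Pabpn1l was not analysed here because it is not listed.

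Proteins that bind PABP regulate it in opposite ways. Paip2 (chromosome 18, 35598617 to 35617186, plus strand) encodes an inhibitor that takes PABP off the poly(A) tail, and mice that lack it and its paralog Paip2b have defects in late spermatids. Paip2 had normalized counts of 2633, 2667, 2728, 2349 and 2155 in WT libraries 1 to 5 and 1669.8, 1636, 1629.8, 1439 and 1142 in KI libraries 1 to 5. The lowest WT library, number 5, was above KI library 1, the highest of KI, and libraries 4 and 5 were the lowest of each genotype. Means were 2507 ± 245 in WT and 1503 ± 222 in KI (SD, n = 5 each), log2 fold change −0.75 (SE 0.11, limma adjusted p = 2.20e-04), with −0.70 in libraries 1 to 3 and −0.81 in libraries 4 and 5. With library totals the log2 fold change was −0.52, short of the fold change threshold. The ratio of Paip2 to Pabpc1 was 0.0448 to 0.0669 in the WT libraries and 0.0218 to 0.044 in the KI libraries, and every KI ratio was under every WT ratio.

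Paip2b, the other inhibitor, had normalized counts of 829.5, 706, 779, 642 and 739.8 in WT libraries 1 to 5 and 736, 615, 669, 568 and 544 in KI libraries 1 to 5. Its libraries overlapped, log2 fold change −0.24 (SE 0.11, limma adjusted p = 0.116). Paip1, which stimulates translation through PABP, had normalized counts of 1188, 891, 873, 918 and 715 in WT libraries 1 to 5 and 1061, 968, 982, 906 and 985 in KI libraries 1 to 5, with overlap and a log2 fold change of 0.11 (limma adjusted p = 0.538). Per kb of exon Paip2 (1285 in WT and 771 in KI) stood above Paip1 (323 in WT and 345 in KI) and Paip2b (186 in WT and 157 in KI).

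Other genes of translation were read from lists of the same pathway. Of 97 genes in 7 lists 5 were down-regulated and Ctif alone was up-regulated, with a median log2 fold change of 0.04. The 6 genes are 6.19% of the lists, under the 14.4% called among all genes. Termination and ribosome recycling had 1 of 6 down-regulated, Etf1, the release factor that reads stop codons. Etf1 had normalized counts of 3114, 3008, 2829, 2573 and 2561 in WT libraries 1 to 5 and 1802, 1661, 1659, 1389.5 and 1348 in KI libraries 1 to 5. No KI library reached the WT range, log2 fold change −0.85 (SE 0.10, limma adjusted p = 2.53e-05). Accessory initiation factors had 2 of 17 down-regulated and 1 up-regulated, namely Bzw1, a mimic of eIF5 (log2 fold change −1.16, limma adjusted p = 2.07e-04), Ncbp2 of the nuclear cap binding complex (log2 fold change −0.60, limma adjusted p = 4.64e-04) and Ctif, which acts with that complex (log2 fold change 0.84, limma adjusted p = 0.00758). Bzw1 had normalized counts of 3684, 3619.97, 3919, 2229 and 2275 in WT libraries 1 to 5 and 1676, 1502, 1535, 1091 and 1135 in KI libraries 1 to 5, without overlap and with libraries 4 and 5 the lowest of each genotype. Of 24 poly(A) polymerase and deadenylase genes 1 was down-regulated, Tent4b, a polymerase that extends poly(A) tails (log2 fold change −0.61, limma adjusted p = 0.00121). Of 22 cytosolic aminoacyl-tRNA synthetase genes 1 was down-regulated, Vars, the enzyme for valine (log2 fold change −0.86, limma adjusted p = 1.60e-04). Vars had normalized counts of 6794, 8137, 8995, 6441 and 7529 in WT libraries 1 to 5 and 3367, 4100.3, 3742, 5116 and 4699.6 in KI libraries 1 to 5, again without overlap. Within libraries 4 and 5 alone Vars (−0.51) and Tent4b (−0.24) fell short of the fold change threshold, and Ctif, at 1.10, missed the adjusted p (0.0766). Ncbp2 was not called in libraries 1 to 3 alone (−0.47), and with library totals Ncbp2 (−0.37) and Tent4b (−0.38) were not called.

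Genes of the translation machinery often begin their mRNA with C and a run of pyrimidines, the mark of messages controlled through mTOR. RefSeq promoters (GRCm38.p6) were at hand for 57 of the 75 members, among them 5 of the 8 down-regulated ones. Eef1d, Eef1g and Paip2 had no promoter at hand, so their starts were not examined. A start of C followed by 4 or more C or T was annotated for 3 of the 57 members (5.26%) and for 3.06% of the 12216 listed genes with a promoter, and for 0 of the 5 down-regulated members. The windows below show 30 bases, 20 before the annotated start and 10 from it, with capitals for the start base of the down-regulated genes and for the run of pyrimidines in Eif2s3x, Eif3f and Paip1. They are shown so that the starts of the genes that fell can be set beside those of members with the pyrimidine mark. Eif4e has 2 annotated starts, and both are shown. An annotated start may differ from the one used in germ cells.
Eif1 (chr11:100319929-100319958, plus strand): gcagcgcgctggcgtcacagGggcggctat
Eif1ax (chrX:159372158-159372187, plus strand): gcggggaggaggaggagggcGgggagaagc
Eif4e (chr3:138526171-138526200, plus strand): aagattgctaaaacagcagcGgaggcggag
Eif4e (chr3:138527248-138527277, plus strand): tcctctcgcccccccttcagGagcggttgt
Eif4g1 (chr16:20672707-20672736, plus strand): cccggcgccagcgcagctccGccctctgcg
Eif4h (chr5:134639400-134639429, minus strand): cgtgcgtgcgacttgcgatcAggcagcgcg
Eif2s3x (chrX:94212642-94212671, minus strand): ggcggctgccgagcattttcCTTTTCTCTC
Eif3f (chr7:108934395-108934424, plus strand): gctcttctgttctaggctctCTCTCTTTCT
Paip1 (chr13:119428580-119428609, plus strand): caccaaccgtcagtctcgcaCTTTTCTCCg

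Other motifs were searched on both strands of 300 bases, 250 of them before the annotated start. CCAAT was in 36.8% of the 57 members and 42.6% of listed genes, and TATAAA in 10.5% and 9.10%. CCGGAAG, the core of ETS factor sites, was in 29.8% of members and 17.7% of listed genes, GGGCGG in 73.7% and 62.8%, and TGACGTCA, the full cAMP response element, in 1.75% (Eef2 alone) and 3.40%. Among the 5 down-regulated members with a promoter, CCGGAAG was in 1 (Eif1ax), CCAAT in 2 (Eif1 and Eif4e) and GGGCGG in 4. These are matches of letters and do not show binding.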

How the data were processed

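Poly(A) RNA of germ cells from 5 WT and 5 KI mice was measured with 1 library per mouse. The authors used STAR (mm10) for alignment and Partek (E/M counting, RefSeq_v91 genes) for quantification, versions of STAR and Partek not stated, and deposited for each gene a signal, the count divided by the DESeq2 size factor of the library. Dividing by the value of 1 read gave whole reads (within 0.05) for 100% of values under 5000 reads. Whether counting used strand is not given in the sources used here. No column was left unassigned. Columns were matched to samples by their labels.

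Values were tested as log2(value + 1) with limma 3.58.1 (R 4.3.3, variance trend) on 15389 genes left by filterByExpr (edgeR 4.0.16), with Benjamini-Hochberg adjustment over all of them. On simulated data limma recovered 196 of 200 changed genes among 15389, with 2 false calls. The simulation gave every gene the same relative spread between libraries, had no library sets and scored the adjusted p alone. It checks the fit, and its rates need not hold for the real libraries. Total reads and sums of normalized counts were tested with an exact permutation test (two-sided, 252 arrangements, smallest possible p 0.00794). Sums over role groups had been planned with the same test and are given without it. edgeR's quasi-likelihood test and DESeq2 1.42.0 on recovered reads, other scalings, pseudocounts and filters, a replicate block, a term for libraries 4 and 5, each library set alone and leaving out each library were the alternatives.

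Values in every library are given for members that were called, those of a list of germ cell or paralog forms, the most abundant per kb of exon in each role, and the 5 with the lowest adjusted p under the fold change threshold, 39 in all. Eif1b and Eef1b2 were added after their values were seen, for their ratios to called members. The members and lists were chosen with earlier results of these data known. Exon lengths are those of GENCODE vM21, which has one for 74 members, and none was used for Eif3j2. Positions are those of the deposited table on mm10. Ratios between members were chosen after their values were seen.

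The replicate numbers in the labels were checked for pairing. After removal of genotype means, WT and KI libraries with equal numbers had r of 0.105 to 0.462. Mean r was 0.134 for other WT and KI pairs within libraries 1 to 3 or within 4 and 5, and −0.201 between these sets. For 8 of 10 libraries the best partner of the other genotype had the equal number. Such pairing is seen in the values and is not stated in the labels, so a replicate block was an alternative only. Between libraries of a genotype, chi-square over its degrees of freedom was 2.66 to 46.9. A gene without a read could have up to 3 reads, or 2.61 to 3.62 normalized counts. The interaction of genotype with library set and the reads without each library were chosen after seeing the data.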

Additional observations from a re-analysis of the deposited data

Results flagged for a closer look

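In the 39 named members 78 groups of 5 libraries were examined for a library far from the rest, measured as its gap to the nearest library over the range of the group, with a limit of 0.71. In 2 groups the limit was passed, where chance gives about 1 in 20. For Eef1a1, WT library 5 was the lowest of WT at 33445 normalized counts, and the next was 42615 (gap over range 0.732). For Eif4g1, WT library 4 was the lowest of WT at 4027 normalized counts, and the next was 5056 (gap over range 0.856). Without WT library 4, Eif4g1 was still called lower in KI.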

How the results depend on the processing

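The count of members called lower in KI stayed at 8 with TMM factors, edgeR (2241 genes called in all), DESeq2, either pseudocount, either filter, the term for libraries 4 and 5, and without any single library (8 to 8). The replicate block also left 8 and changed no member's call, but put 26 members instead of 15 past the adjusted p, 11 of them with the block only. It was 10 in libraries 1 to 3 alone, 5 in libraries 4 and 5 alone, 3 with library totals and 13 with the adjusted p threshold alone. Members called higher numbered 2 with library totals and 2 with the adjusted p alone, otherwise 0, also without any single library (0 to 0). All 8 called members kept a negative log2 fold change in each of 22 settings.

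All genes called numbered 2209, 1235 with a mean of at least 100, where fewer genes are tested, 3529 with the adjusted p alone, 2410 with the replicate block and 1971 to 2303 without 1 library. Library totals turned the split of higher and lower calls from 944 and 1265 to 2145 and 789. Calls in the other pathway lists were 6, or 13 with the adjusted p alone, 5 with a mean of at least 100, 7 in libraries 1 to 3, 4 in libraries 4 and 5 and 5 to 6 without 1 library. Of the 6 with library totals 4 were the same genes, and Ddx3x and Nars were gained as higher. Ncbp2 was not called without WT library 1 or KI library 4 or 5, nor Tent4b without WT library 2 or 3 or KI library 1, 2 or 3. Without 1 library the adjusted p of Eif3j2 was over 0.05 in 3 of 10 cases and that of Eif4b in 2. The member median of −0.07 became 0.16 with library totals, −0.12 with a mean of at least 100, −0.12 in libraries 1 to 3, −0.03 in libraries 4 and 5, and −0.12 to −0.07 without 1 library. It takes no value under the call rule. Where fewer libraries or genes, or a changed rule, do not account for a shift, the cause was not tested. The difference in total reads was −767343 to 130201 without 1 library, turning to 7488 without WT library 5 and 130201 without KI library 3 (chosen after seeing the data).

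For the 39 named members 854 values were recomputed. In 843 the call was the same, 8 lost it, 3 gained it and 0 reversed a call, while 49 values without an adjusted p under 0.05 changed sign. Most of these values are of members without a call, which could not lose one. All losses fell in 2 settings, library totals, where 3 of the 8 called members kept the call, and libraries 4 and 5 alone, where 5 did.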

Other observations

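Per kb of exon, the levels of the members spanned a wide range in both genotypes, from 23469.8 in WT and 20896 in KI for Eef1a1 to 7.97 in WT and 8.21 in KI for Pabpc1l. The sign of the log2 fold change differed between libraries 1 to 3 and libraries 4 and 5 for 27 of the 75 members. The share over all genes was not computed, so this count is not read as a trait of the members. None of these was called with all libraries, where opposite signs partly cancel. With 5 mice per genotype, small fold changes such as those of Eif4a3 and Eif2s3x lie close to the adjusted p threshold.

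mRNA levels in mixed germ cells say nothing here of the amount or activity of the proteins, which were not measured. Listed genes on the other strand overlap some members, such as Rev1 at Eif5b and Rfc4 at Eif4a2, and use of strand in counting is not stated.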
